A study of Mus musculus with 6 samples.

Results

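Neurotensin is a secreted peptide that acts on a pair of G protein-coupled receptors, encoded by Ntsr1 and Ntsr2, and binds the sorting receptor sortilin, encoded by Sort1. These 4 genes, Ntsr1, Ntsr2, the peptide gene Nts and Sort1, are described here in the caput epididymis of the mouse, out of 24346 genes in the deposited table. They were found by their symbols, and all 4 had a row. Ntsr1 was picked because its values were nearly lost in every Adgrg2 knockout (KO) library, so its difference between genotypes is given as a description without a test. The other 3 were taken as its partners by name and were tested.

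The caput epididymis is the head of the duct in which spermatozoa mature, and its most proximal stretch is the initial segment. RNA sequencing was run on this tissue from mice aged 8 weeks, with 3 libraries of the genotype labelled Wild-type and 3 of the genotype labelled Adgrg2-/Y. Adgrg2, on the X chromosome, encodes a G protein-coupled receptor of the adhesion class found in the male excurrent ducts, and the comparison addresses which caput transcripts differ without it. No treatment is named. The strain and the way the Adgrg2 allele was made (not given in the sources used here) are therefore not described. The labels do not state that the libraries of a genotype stem from separate mice. The p-values measure the spread between these libraries, which may be technical.

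Neurotensin is best known as a neuropeptide of the brain and as a hormone of endocrine cells of the small intestine. Its precursor is cut by prohormone convertases, and the free peptide is degraded by metallopeptidases. NTSR1, the high-affinity receptor, couples mainly to Gq proteins, which activate phospholipase C, release calcium and drive protein kinase C and ERK signalling. NTSR2 binds the peptide with lower affinity. Sortilin carries a Vps10 domain, has no G protein, and moves lysosomal and secreted proteins between the Golgi apparatus, endosomes and the cell surface.

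The start regions of the receptor with the near loss and of its ligand are shown first, because they differ in base composition and in short motifs. Each runs from 250 bases before to 50 bases after the RefSeq gene start in GRCm38.p6. The Ntsr1 window is chr2:180499726-180500025 on the plus strand and the Nts window is chr10:102490369-102490668 on the minus strand. Capitals mark matches, on either strand, to AGGAAG (the core bound by PEA3-type ETS factors), TGANTCA (AP-1), TGACNTCA (the cAMP response element) and TATATA (the core of the box bound by TATA-binding protein).
Ntsr1: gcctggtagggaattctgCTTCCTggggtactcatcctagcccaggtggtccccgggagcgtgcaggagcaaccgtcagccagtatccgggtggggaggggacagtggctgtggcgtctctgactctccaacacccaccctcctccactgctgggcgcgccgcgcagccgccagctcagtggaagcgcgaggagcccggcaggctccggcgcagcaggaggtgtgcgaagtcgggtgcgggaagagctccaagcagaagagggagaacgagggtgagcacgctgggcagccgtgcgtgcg
Nts: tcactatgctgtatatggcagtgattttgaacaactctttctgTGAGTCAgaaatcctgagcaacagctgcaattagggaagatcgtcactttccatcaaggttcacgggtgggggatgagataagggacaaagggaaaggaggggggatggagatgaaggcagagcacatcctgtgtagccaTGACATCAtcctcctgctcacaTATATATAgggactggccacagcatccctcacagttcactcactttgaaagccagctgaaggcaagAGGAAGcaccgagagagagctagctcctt

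The Ntsr1 window had 68.0% G and C and 23 CpG pairs, against medians of 52.7% and 7 over 27025 windows of the same length. Its only match was the reverse complement of AGGAAG, at position -232 counted from the gene start, and 35.1% of all windows hold that motif. The Nts window had 49.0% G and C and 3 CpG pairs. It held TGANTCA at position -207 and TGACNTCA at position -67, motifs present in 7.93% and 8.97% of windows. It also held AGGAAG at position 22 and 2 overlapping copies of TATATA, a motif found in 5.94% of windows. The Ntsr2 window, chr12:16653220-16653519 on the plus strand, is set in RefSeq's table on a start slightly inside the gene interval given for Ntsr2 here. It had 56.3% G and C and 5 CpG pairs and held none of these motifs. None of the 3 windows held AGAACA, a half-site of the androgen receptor that is present in 19.0% of windows. A match is a run of letters and not a measured binding site. Sort1 is named only.

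Ntsr1 was a clearly expressed gene of the wild-type caput and was close to 0 in all 3 KO libraries. Expression is given in FPKM, fragments counted per transcript length and library size. The gene (NCBI ID 18216) lies on chromosome 2 from 180499976 to 180544979 in mm10 on the plus strand, and the GENCODE annotation has protein-coding transcripts of 4 and 5 exons. It was at 16.7, 18.8 and 18.4 FPKM in wild-type replicates 1, 2 and 3 (mean 18.0 ± 1.13, SD, n = 3). In the KO it was at 0.204 FPKM in replicate 1 and 0.0317 in replicate 2, and it was listed at 0 in replicate 3. The wild-type libraries differed from each other by no more than 1.13-fold, and every KO library lay far below them.

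Behind these levels were 1179, 1156 and 1224 wild-type fragments against 13, 2 and 0 KO fragments, 3559 against 15 in total. KO replicate 1 held 1.14% of the wild-type mean, with an exact Poisson 95% interval of 0.606% to 1.94%. Replicate 2 held 0.176%, with an interval of 0.0214% to 0.637%. For replicate 3, the 3 fragments that a count of 0 allows correspond to 0.0564 FPKM, or 0.314% of the wild-type mean, so against this floor that library was at least 318.5-fold lower. The upper end of its exact Poisson interval, 3.69 fragments, gives 259-fold. These intervals and limits cover counting error only. The interval of replicate 1 lay above that of replicate 3, which ended at 0.386%, and it overlapped slightly with that of replicate 2. In whole tissue, fewer cells that express a gene and less RNA per cell cannot be told apart.

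Among all genes, the mean FPKM of Ntsr1 ranked 4433 of 24346 in wild-type, above 81.8% of genes, and 16151 in the KO. On the log2(FPKM + 1) scale used for testing, the difference was -4.14, which understates the change of a gene this close to 0. After the values were seen, the depth of this loss was set beside other genes. Of 12407 genes with at least 1 FPKM in every wild-type library, 140 (1.13%) were below 50% of their wild-type mean in every KO library. There were 28 below 20%, 9 below 10%, and 3, Ntsr1, Myo16 and Spz1, below 5%. Ntsr1 was the 1 gene of these 12407 below 2% in every KO library. Since Ntsr1 was picked for this pattern, its place in that order is a description.

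**Figure D1:**
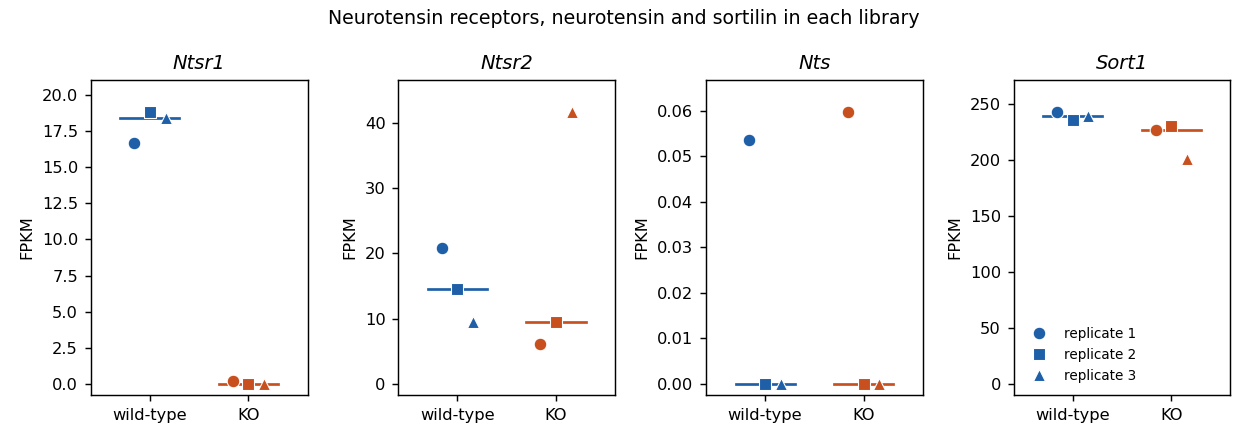
FPKM of Ntsr1, Ntsr2, Nts and Sort1 in each of the 3 wild-type and 3 KO libraries. Points are libraries, marked by replicate, and lines are genotype medians. Ntsr1 was at 16.7 to 18.8 FPKM in wild-type and at most 0.204 in the KO, Ntsr2 spread widely in both genotypes, Nts was near 0 and Sort1 was highest.

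Ntsr2 (NCBI ID 18217), the gene of the lower-affinity receptor, was transcribed in both genotypes, and its level varied more between libraries than between genotypes. It lies on chromosome 12 from 16653443 to 16660236 on the plus strand. It was at 20.8, 14.6 and 9.51 FPKM in wild-type (mean 14.98 ± 5.68, SD, n = 3) and at 6.07, 9.49 and 41.6 in the KO (mean 19.0 ± 19.6, SD, n = 3). The genotypes overlapped, with KO replicate 3 above every wild-type library and KO replicates 1 and 2 below them all.

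The log2 change of Ntsr2, KO minus wild-type, was -0.06 ± 0.68 (SE), with a 95% interval of -1.72 to 1.597 and an adjusted p of 0.966 in limma with Benjamini-Hochberg adjustment over 12799 genes. That interval includes changes of more than 2-fold in either direction. Without KO replicate 3 the change was -0.83 and the adjusted p was 0.208. Over all tested genes 32 passed the threshold of 0.05, which is 0.25% of them, with 22 lower in the KO (0.172%) and 10 higher (0.0781%).

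The spread of Ntsr2 was present in wild-type too. On the log2 scale its SD among wild-type libraries was 0.53, larger than that of 99.8% of the 500 genes of most similar level, and its highest wild-type library was 2.19-fold above its lowest. In the KO the SD was 1.36, larger than that of 97.0% of such genes. The counts behind it were 534, 325 and 229 wild-type fragments and 140, 217 and 801 KO fragments, so counting error is small against these differences. Ntsr2 overlaps by 461 bases with Lpin1, a phosphatidate phosphatase gene on the opposite strand, and the strand setting of the counting, not given in the sources used here, could not be checked. Lpin1 stood at 9.32, 9.85 and 9.71 FPKM in wild-type and at 6.92, 9.50 and 10.9 in the KO (limma adjusted p = 0.76). The part of Lpin1 reads in the values of Ntsr2 was not tested.

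Nts (NCBI ID 67405), the gene of the ligand, was not detectable above the limit of these libraries. It lies on chromosome 10 from 102481756 to 102490418 on the minus strand. Wild-type replicate 1 and KO replicate 1 held 1 fragment each, 0.0537 and 0.0597 FPKM, and the gene was listed at 0 in the other 4 libraries. The 3 fragments that a count of 0 allows correspond to 0.161 to 0.214 FPKM depending on the library. No fold is given, since both genotypes lie under that floor. The gene was too low for the filter on low values. In the fit without that filter, its log2 change was 0.003 ± 0.035 (SE), with a 95% interval of -0.09 to 0.09 and a limma adjusted p of 1. In that fit 0.296% of 24346 genes passed. The narrow interval follows from adding 1 to FPKM values this low, so it does not bound a fold change. With 0.1 or 0.01 added instead, the SE was 0.28 or 1.19. Caput tissue thus held receptor transcripts with 2 fragments of ligand transcript in all 6 libraries, and peptide reaching the duct from elsewhere was not measured.

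Sort1 (NCBI ID 20661), the gene of sortilin, was the most abundant of the 4 in both genotypes. It lies on chromosome 3 from 108283974 to 108361519 on the plus strand. It was at 243, 236 and 239 FPKM in wild-type (mean 239 ± 3.20, SD, n = 3) and at 227, 231 and 201 in the KO (mean 219 ± 16.4, SD, n = 3). Every KO library was below every wild-type library, as for 2058 of the 12799 tested genes (16.1%). The log2 change was -0.13 ± 0.12 (SE), with a 95% interval of -0.42 to 0.16 and a limma adjusted p of 0.556. The wild-type libraries of Sort1 differed by no more than 1.03-fold. The 4 genes thus ordered in wild-type as Sort1 above Ntsr1 and Ntsr2 above Nts, and Ntsr1 and Ntsr2 overlapped. In the KO the order by mean was Sort1, Ntsr2, Ntsr1 and Nts, and the ranges of Ntsr1 and Nts overlapped there.

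**Figure D2:**
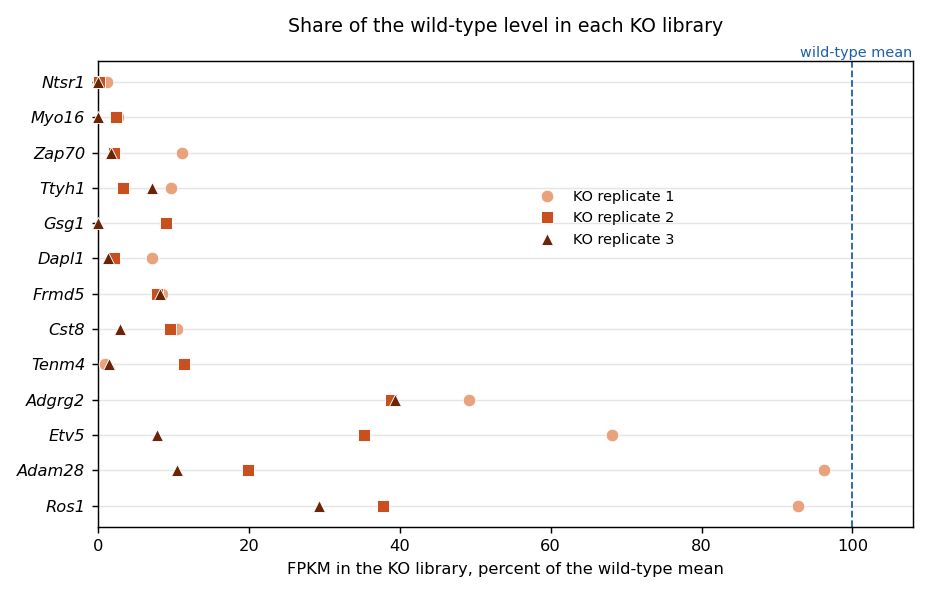
FPKM in each KO library as a percentage of the wild-type mean, for Ntsr1, the 8 genes nearest to it, Adgrg2 and initial segment genes; the dashed line is the wild-type mean. All KO libraries of Ntsr1 lie at 1.14% or below. In replicate 1 the initial segment genes shown spread from 10.51% (Cst8) through 68.1% (Etv5) to 92.7% (Ros1) and 96.2% (Adam28).

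Ntsr1 was also among the highest of the peptide receptors in wild-type caput. Among 39 receptor genes, made of the neurotensin pair and 37 related receptors, wild-type means ordered as Oxtr, Ntsr1, Ntsr2, F2rl1 and Ednra. Oxtr, the oxytocin receptor gene, was at 45.0, 48.3 and 44.4 FPKM in wild-type and at 69.8, 32.6 and 38.2 in the KO. It stood above Ntsr1 in every wild-type library without overlap. F2rl1, the gene of a protease-activated receptor, was at 8.20, 8.54 and 7.61 FPKM in wild-type and at 12.7, 11.2 and 12.2 in the KO. Its log2 change was 0.52 ± 0.10 (SE), with a limma adjusted p of 0.108, and it passed without KO replicate 3 (adjusted p = 0.0435). Ednra, an endothelin receptor gene, was at 7.16, 6.97 and 7.37 FPKM in wild-type and at 4.41, 8.70 and 0.162 in the KO. By KO mean, Ntsr2 came second and Ntsr1 22nd of the 39. Of the 37 related receptors, 12 were abundant enough to test. None passed in limma, and 1 had an unadjusted p under 0.05, against 17.5% of all tested genes.

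**Figure D3:**
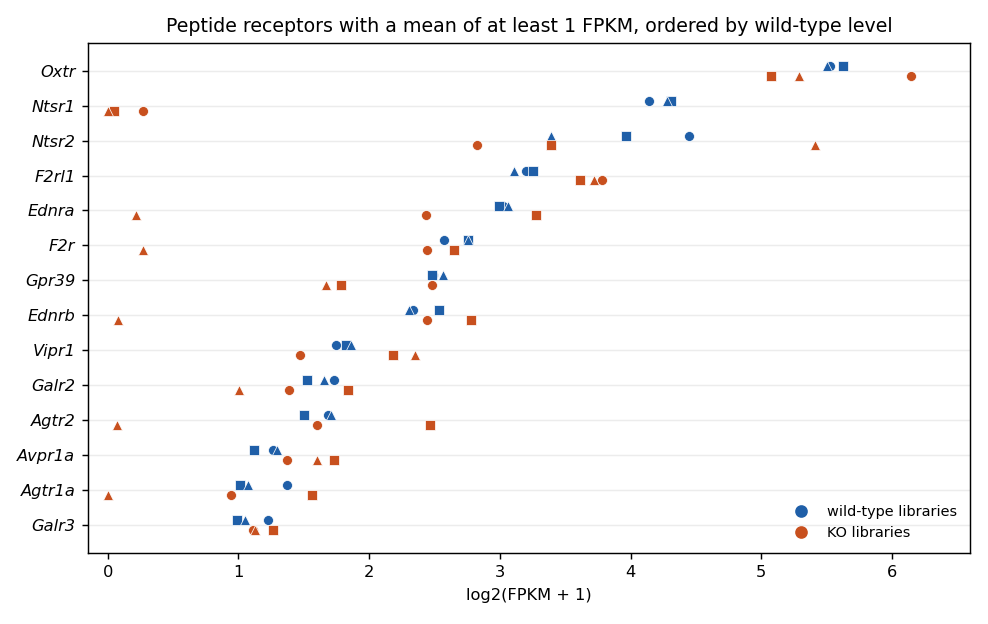
Level of peptide receptor genes averaging 1 FPKM or more, as log2(FPKM + 1), in each wild-type (blue) and KO (orange) library; circles, squares and triangles are replicates 1, 2 and 3. Oxtr, Ntsr1 and Ntsr2 lead in wild-type, with means of 45.9, 18.0 and 14.98 FPKM, and Ntsr1 is near 0 in all 3 KO libraries.

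The genes whose pattern was most like that of Ntsr1 were chosen by the root mean square difference over the 6 libraries, with each gene divided by its wild-type mean. Over 12766 genes, the 8 nearest were Myo16, Zap70, Ttyh1, Gsg1, Dapl1, Frmd5, Cst8 and Tenm4, at distances of 0.0226 to 0.0696. As the choice used their values, they carry no test. Myo16, an unconventional myosin gene, was at 4.68, 5.005 and 5.22 FPKM in wild-type and at 0.134, 0.116 and 0 in the KO. Dapl1 was at 73.6, 76.2 and 68.7 FPKM in wild-type and at 5.19, 1.59 and 0.940 in the KO. All 8 were low in every KO library. In KO replicate 1 Tenm4 was at 0.879% of its wild-type mean, inside the Poisson interval of Ntsr1 there (0.606% to 1.94%). Myo16 and Gsg1 were listed at 0 in replicate 3, as Ntsr1 was.

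Zap70, known for its kinase in T cell receptor signalling, was at 22.2, 26.8 and 25.2 FPKM in wild-type and at 2.76, 0.515 and 0.428 in the KO. Tenm4, a teneurin gene, was at 9.16, 9.08 and 8.48 FPKM in wild-type and at 0.0783, 1.02 and 0.127 in the KO. Cst8, an epididymal cystatin gene, was at 2315, 2301 and 2373 FPKM in wild-type and at 245, 223 and 68.4 in the KO. The order of the KO libraries was thus not shared, since Tenm4 was highest in replicate 2, with 180 fragments, where Ntsr1 had 2. With Pearson correlation of log2(FPKM + 1) as the measure of likeness, 2 of these 8, Myo16 and Ttyh1, were again among the nearest 8.

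None of 12 initial segment genes passed in limma, although 7 had an unadjusted p under 0.05 and 7 were below wild-type in every KO library, against 17.5% and 16.1% of all tested genes. With KO replicate 1 left out, where 541 of all tested genes passed, Ros1, Lcn9, Cst8, Adam28, Ovch2 and Rnase10 passed. With KO replicate 3 left out, where 631 passed, Lcn8, Cst8 and Ovch2 did. Cst8 also passed after quantile normalization. Ros1, the gene of a receptor tyrosine kinase needed for initial segment differentiation in mice, was at 77.9, 77.0 and 77.4 FPKM in wild-type and at 71.8, 29.2 and 22.6 in the KO. Etv5, a PEA3-type ETS factor gene, was at 209.6, 210.6 and 209.7 FPKM in wild-type and at 143, 74.0 and 16.3 in the KO. Adam28, a metalloprotease gene, was at 1457, 1560 and 1559 FPKM in wild-type and at 1468, 303 and 161 in the KO. In KO replicate 1, where Ntsr1 was at 1.14% of the wild-type mean, the 12 genes ranged from 10.51% for Cst8 to 130.8% for Rnase10. In that library Lcn8 was at 29.1%, Ovch2 at 46.9%, Ros1 at 92.7% and Adam28 at 96.2%. The 12 genes thus differed widely among themselves there. Over the 12 initial segment genes, the median log2 difference to the wild-type mean was -0.20 for the KO library of replicate 1, -2.06 for that of replicate 2 and -3.42 for that of replicate 3. The part of this gradient in the values of Ntsr1 was not tested.

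Adgrg2 itself was at 808, 850 and 841 FPKM in wild-type and at 410, 324 and 328 in the KO. Its KO libraries were all below wild-type, and its log2 change was -1.24 ± 0.16 (SE) with a limma adjusted p of 0.0579. It passed after quantile normalization, without the mean-variance trend, and without KO replicate 1 (adjusted p = 0.0137) or KO replicate 3, over a range of 0.0137 to 0.447 in the alternatives. The transcript was thus lower in each library labelled as KO without being lost. Which exons were removed, not given in the sources used here, could not be compared with this.

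The genes on either side of Ntsr1 on chromosome 2 did not share its near loss. Slco4a1, an organic anion transporter gene that ends 25123 bases before Ntsr1, was at 11.4, 12.2 and 13.01 FPKM in wild-type and at 16.5, 14.1 and 3.92 in the KO (limma adjusted p = 0.754). Mrgbp, a gene of a chromatin complex subunit that starts 36219 bases after Ntsr1, was at 4.51, 5.002 and 4.06 FPKM in wild-type and at 7.54, 7.25 and 7.12 in the KO. Its log2 change was 0.59 ± 0.11 (SE), with a limma adjusted p of 0.105, and it passed without KO replicate 3 (adjusted p = 0.0398). Both neighbours thus differed from Ntsr1, with Mrgbp higher in every KO library, as were 16.8% of all tested genes. Next to it, Ogfr was at 18.0, 17.0 and 18.0 FPKM in wild-type and at 20.3, 17.3 and 19.7 in the KO (limma adjusted p = 0.578). Col9a3 was at most 0.211 FPKM in any library, and the microRNA genes Mir1a-1 and Mir133a-2 were listed at 0 in all 6.

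Of the 24 neighbours of the 4 genes, 3 on each side, 10 were abundant enough for the filtered fit. None of these passed in limma, against 0.25% of all tested genes, and 2 had an unadjusted p under 0.05, against 17.5%. In the fit without the filter none of the other 14, some of them listed at 0 throughout, passed either. Mrgbp, Atxn7l2 beside Sort1 and 1700017N19Rik beside Nts, a gene under the filter, were the 3 with an unadjusted p under 0.05. Beside Ntsr2, Greb1, an estrogen-responsive gene, was at 16.6, 22.1 and 20.7 FPKM in wild-type and at 28.6, 23.6 and 21.7 in the KO (limma adjusted p = 0.354). Beside Sort1, the proteasome subunit gene Psma5 lies 4022 bases away and was at 62.3, 61.1 and 62.9 FPKM in wild-type and at 65.9, 68.3 and 93.7 in the KO. On the other side of Sort1, Mybphl lies 3392 bases away and was listed at 0 in all libraries. Psma5 was above wild-type in each KO library, as were 16.8% of all tested genes, and did not pass in limma (adjusted p = 0.395). Sort1 was below in each, as were 16.1%.

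No tested gene of 6 lists drawn up around neurotensin and sortilin passed the threshold. The lists cover production and breakdown of the peptide, Gq signalling and receptor desensitization. They also cover the other Vps10 receptors, cargo and sorting partners of sortilin, and the related receptors. Together they held 96 genes, of which 63 were abundant enough to test. Among the others, the related receptor genes Ghsr and Npy5r were listed at 0 in all 6 libraries, and the convertase gene Pcsk1 was at 0 in all 3 KO libraries with 1 fragment in wild-type. None of the 63 passed in limma, against 0.25% of all tested genes, and 10 had an unadjusted p under 0.05, against 17.5%. The log2 change was negative for 36 and positive for 27, with a median of -0.07 against 0.01 over all tested genes. In 18 of the 63 (28.6%) the genotypes did not overlap, 10 lower and 8 higher in the KO, against 32.9% of all tested genes (16.1% lower and 16.8% higher). That share is near the background and is no result about these genes.

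Of the 10 genes listed for production and breakdown of the peptide, 8 were tested, with a median log2 change of -0.33. Among these, 1 had an unadjusted p under 0.05 in limma, against 17.5% of all tested genes. Pcsk5, a proprotein convertase gene, was at 39.8, 42.1 and 38.9 FPKM in wild-type and at 24.7, 10.1 and 10.1 in the KO. Its log2 change was -1.49 ± 0.34 (SE) with a limma adjusted p of 0.147, and it passed without KO replicate 1 (adjusted p = 0.00351). The KO libraries of Pcsk5 were thus all below wild-type, replicate 1 least so.

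Pam, the gene of an enzyme that amidates peptides, is in the list as a general peptide-processing gene. No step of neurotensin production is read from it. Pam was at 21.7, 19.2 and 19.6 FPKM in wild-type and at 11.5, 17.9 and 1.75 in the KO. The log2 change of Pam was -1.29 ± 0.69 (SE), with a limma adjusted p of 0.365. Its KO values did not overlap wild-type but spread over a wide range. Ace, the gene of a peptidase that can cleave neurotensin, was at 149.9, 130.6 and 130.9 FPKM in wild-type and at 114, 149 and 245 in the KO. Cpe, a carboxypeptidase gene, was at 116.1, 107.8 and 109.9 FPKM in wild-type and at 125, 188 and 14.4 in the KO. In both, KO replicate 3 stood apart from the other KO libraries, in opposite directions.

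The list for Gq signalling below the receptors held 21 genes, of which 19 were tested, with a median log2 change of -0.16. In this list 3 had an unadjusted p under 0.05 in limma, against 17.5% of all tested genes. Gnaq, the gene of Gq itself, was at 21.8, 21.4 and 20.6 FPKM in wild-type and at 17.1, 18.1 and 8.39 in the KO. It was below wild-type in every KO library, as were 16.1% of all tested genes, and did not pass in limma (adjusted p = 0.329). The most abundant genes of the list were the G protein genes Gnai2 and Gna11. Gnai2, which encodes a Gi and not a Gq protein, was at 188, 187 and 197 FPKM in wild-type and at 193, 157 and 180 in the KO. Gna11 was at 72.5, 79.2 and 78.8 FPKM in wild-type and at 79.7, 59.0 and 62.6 in the KO. Neither Gnai2 nor Gna11 passed in limma (adjusted p = 0.616 and 0.456).

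Receptor desensitization was covered by 6 genes, all tested, with a median log2 change of -0.25. An unadjusted p under 0.05 in limma was found for 1 of them, against 17.5% of all tested genes. Grk3, a receptor kinase gene listed under its older symbol Adrbk2, was at 4.03, 4.45 and 4.37 FPKM in wild-type and at 1.17, 1.38 and 0.582 in the KO. Its log2 change was -1.39 ± 0.18 (SE), and its limma adjusted p was 0.0596. It passed without KO replicate 1, and also without KO replicate 3 (adjusted p = 0.00926). Grk2, listed as Adrbk1, was at 40.0, 42.6 and 41.7 FPKM in wild-type and at 44.2, 25.7 and 25.3 in the KO. Arrb2, an arrestin gene, was at 28.8, 29.4 and 33.0 FPKM in wild-type and at 35.3, 22.2 and 30.3 in the KO. In this list Adrbk2 was the 1 gene of 6 (16.7%) whose genotypes did not overlap, against 32.9% of all tested genes.

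The other receptors with a Vps10 domain were far less abundant than Sort1. Of 4, Sorl1 and Sorcs2 were tested, and neither had an unadjusted p under 0.05. Sorl1 was at 7.86, 7.65 and 6.98 FPKM in wild-type and at 7.36, 9.67 and 5.20 in the KO. Sorcs2 was at 6.92, 7.73 and 7.33 FPKM in wild-type and at 5.92, 10.47 and 0.455 in the KO. Among 18 genes for cargo and sorting partners of sortilin, 16 were tested, and the median log2 change was 0.06. Of these 16, 4 had an unadjusted p under 0.05 in limma, against 17.5% of all tested genes. They were Grn, Gm2a, Gga3 and Igf2r, all higher in the KO, and none passed. In 5 of the 16 (31.2%) the genotypes did not overlap, 4 higher and 1 lower in the KO, against 32.9% of all tested genes. Psap, the gene of the lysosomal protein prosaposin, was at 533, 509 and 512 FPKM in wild-type and at 500.9, 623.4 and 606.2 in the KO (limma adjusted p = 0.598). Ctsd, the gene of the lysosomal protease cathepsin D, was at 523, 506 and 525 FPKM in wild-type and at 566, 575 and 464 in the KO.

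**Figure D4:**
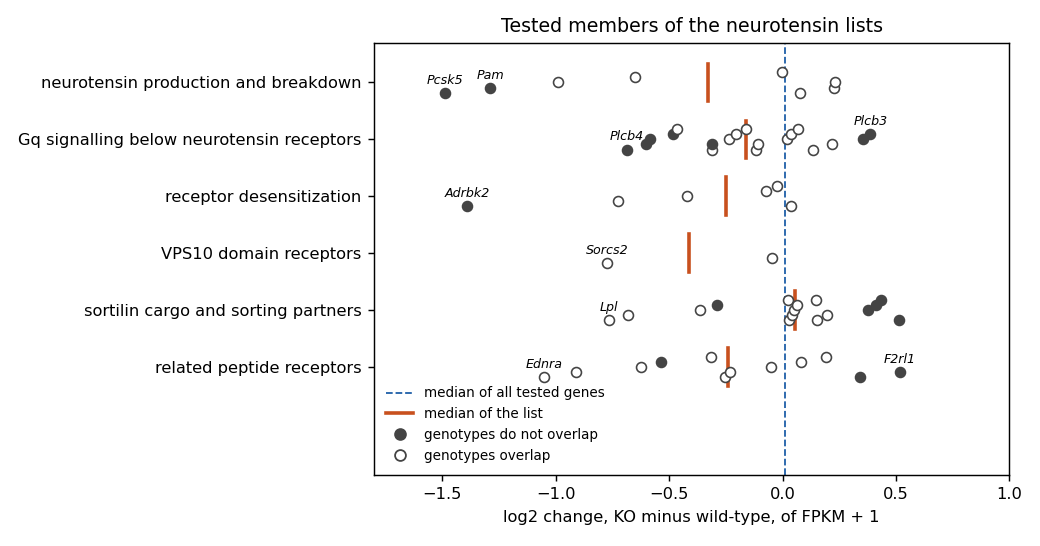
Log2 change, KO minus wild-type, of FPKM + 1 for the tested members of the 6 neurotensin lists. Each circle is a gene, filled where the genotypes do not overlap; orange bars are list medians and the dashed line is the median of all tested genes, 0.01. Pcsk5 at -1.49 and Adrbk2 (Grk3) at -1.39 are the lowest.

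The KO libraries differed among themselves, and so did markers of other cell types. On the log2 scale, the median SD of a gene was 0.0669 in wild-type, 0.284 in the KO and 0.145 in the KO without replicate 3. The last value comes from fewer libraries than the others, so it is not directly comparable with them. Principal cell markers of the duct epithelium went both ways. Of 10, Crisp1, Aqp9 and Cftr were below wild-type in every KO library, as were 16.1% of all tested genes. Lcn5, Gpx5, Epcam, Krt8 and Krt18 were above it in every one, as were 16.8% of all tested genes. The median log2 differences of the 10 were 0.20, 0.12 and 0.17 in the KO libraries in replicate order. Smooth muscle markers were at -0.31, 0.13 and -3.37, fibroblast markers at -1.29, -0.16 and -3.61 and basal cell markers at 0.14, -0.23 and -2.27. Stromal and basal markers were thus lowest in KO replicate 3, where Ntsr2 was highest and Cpe, Pam and Sorcs2 were lowest. In KO replicate 2 the smooth muscle median was 0.13, but the summed level of these markers was 853.7 FPKM, against 2170 to 2440 in wild-type libraries. In that library Actg2 was at 16.7% of its wild-type mean, Acta2 at 96.2% and Myh11 at 134%. The part of stromal and basal cells in the values of Ntsr1 was not tested.

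Germ cell markers were below wild-type in every KO library for 8 of 8 genes, as was Ntsr1 and as were 16.1% of all tested genes. Their summed level was 137.4 to 144.9 FPKM in wild-type libraries, and 21.8, 11.5 and 9.94 in KO replicates 1, 2 and 3. Of 7 tested, Prm1, Oaz3, Ldhc and Dkkl1 fell in limma, against 0.172% of all tested genes. The calls of Prm1, Oaz3 and Ldhc were lost with either lower pseudocount, from normalized counts, without a filter and with the replicate block. They were also lost without KO replicate 2 and without each wild-type library in turn (limma adjusted p up to 0.414). Ldhc lost its call after quantile normalization too. It passed the filter through its wild-type level, with mean log2(FPKM + 1) of 1.936 in wild-type and 0.275 in the KO. The call of Dkkl1 was lost with the block and without each wild-type library (limma adjusted p up to 0.107). In KO replicate 1 the germ cell markers kept a larger share than Ntsr1 did. Of 5 neuroendocrine markers, Chga, Scg2 and Scg3 were listed at 0 in all 6 libraries. Chgb was at most 0.138 FPKM, and Syp was at 0.76 to 1.13 FPKM. The part of these markers in the values of Ntsr1 and Ntsr2 was not tested.

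**Figure D5:**
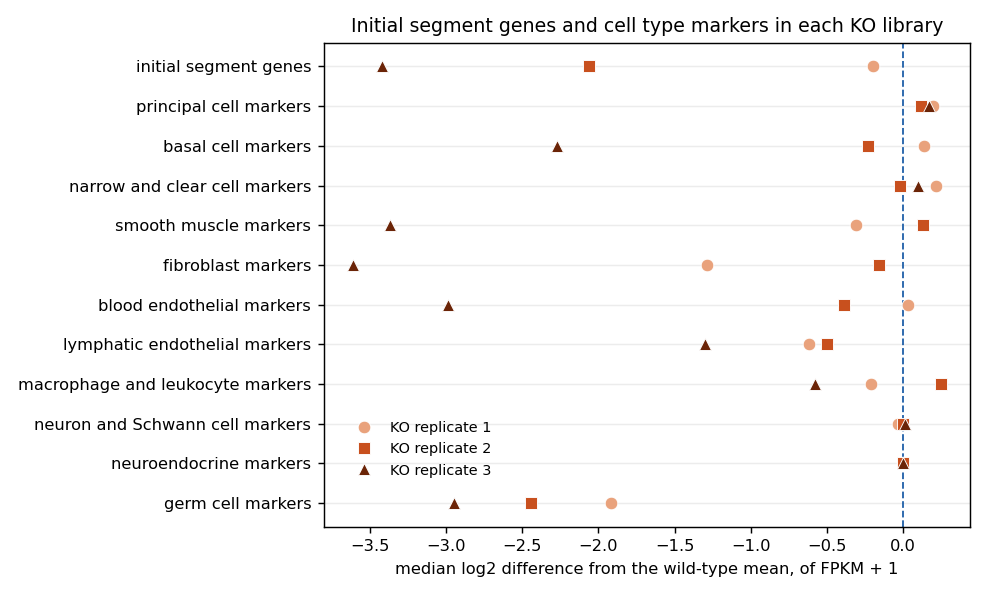
Median log2 difference of each KO library from the wild-type mean for initial segment genes and cell type marker lists. The principal cell medians lie at 0.12 to 0.20 over 10 markers. Of these, 3 are below and 5 above wild-type in every KO library, against 16.1% and 16.8% of all tested genes. Germ cell markers are low in all 3 KO libraries, and smooth muscle and fibroblast markers are lowest in replicate 3.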

How the data were processed

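Caput RNA of 3 wild-type and 3 KO libraries was prepared with a stranded Illumina mRNA kit, per the labels' protocols. The submitters' processing notes name TopHat2 2.1.1, Cufflinks 2.2.1 and mm10. The annotation, strand setting and normalization method (not given in the sources used here) could not be checked. The authors scaled the FPKM values across libraries, as the headers of the deposited table state. Beside them the authors deposited normalized counts, a signal that is likewise scaled, so no count model was fitted. In each library 98.36% to 98.71% of values below 300 were whole multiples of a step, within 0.05. Read as 1 fragment, unchecked against reads, it gives 16498384 to 19723815 fragments per library. A listed 0 may be a failed estimate: Rpl26 was listed at 0 in 2 libraries.

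The 12799 genes averaging 1 FPKM or more were tested with limma 3.58.1 in R 4.3.3 on log2(FPKM + 1) (mean-variance trend, two-sided, Benjamini-Hochberg adjustment, threshold 0.05). The test was checked on simulated data. Members, lists and motifs were chosen with earlier results of these data known. Named genes were the 4 members, Adgrg2, the 8 genes nearest to Ntsr1, list members past the threshold or else the 2 of highest mean, list members with no overlap and a log2 change of at least 1, the 3 neighbours on each side, and Ros1, Cst8, Etv5 and Adam28. Spz1, Ednra, Gnaq, Grn, Gm2a, Gga3 and the list members that passed only in an alternative were named after their values were seen. RefSeq GRCm38.p6 gave positions for 24260 genes (99.65%), matched by NCBI ID. Alternatives were other pseudocounts, filters, scalings and moderations, a replicate block, the normalized counts and each library left out.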

Additional observations from a re-analysis of the deposited data

How the results depend on the processing

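Sort1 kept its negative change and stayed short of the threshold in all 16 alternatives, with changes of -0.17 to -0.07 with a library left out and adjusted p-values of 0.349 or higher. Ntsr2 never passed; its change was positive without wild-type replicate 1 (0.20), KO replicate 1 (0.47) or KO replicate 2 (0.18), and ranged from -0.83 to 0.47 with a library left out. Nts turned negative without wild-type replicate 2 or 3 (-0.01) or KO replicate 1 (-0.025), ranged up to 0.028 with a library left out and up to 0.043 over all alternatives, never passed, and had no value at a minimum mean of 5 FPKM. The Ntsr1 difference was -6.83 and -8.65 with pseudocounts of 0.1 and 0.01, -8.41 from normalized counts, and -4.22 to -4.09 with a library left out.

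The 32 genes past the threshold became 16 and 11 with those pseudocounts, 72 without a filter, 17 at a minimum mean of 5 FPKM, 106 after quantile normalization and 6 from normalized counts, and 2 to 631 with a library left out. Without KO replicate 1 there were 541, without KO replicate 2 there were 17, and without KO replicate 3 there were 631, and without each wild-type library in turn there were 2. The deviations of same-numbered libraries had correlations of -0.113, 0.032 and 0.080, inside the range of the pairs with different numbers. These values gave no sign of pairing by number. With 3 libraries per genotype they cannot exclude it, so whether the numbers pair the libraries stays undecided. The fit with replicate number as a block called 1 gene. Of the 63 tested list members, 1 passed after quantile normalization (Adrbk2), against 106 of all 12799 tested genes, and 0 to 5 passed with a library left out. The 5 of 63 without KO replicate 1, against 541 of 12799, were Pcsk5, Adrbk1, Adrbk2, Ctsh and Gpr39. The 5 of 63 without KO replicate 3, against 631 of 12799, were Plcb3, Prkd1, Adrbk2, Igf2r and F2rl1. The causes were not tested. Likeness to Ntsr1 by correlation shared 2 of 8 genes. Depth limits Nts and the KO levels of Ntsr1.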
